A study of Homo sapiens with 14 samples.

Results

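CRNDE is a long noncoding RNA gene, and its splice events were measured in RNA-seq of HEK293T cells with and without the K700E change of the splicing factor SF3B1. The events were chosen as every entry of the study's splicing table that carries the symbol CRNDE, and the gene was picked with its values known, so that the differences of its events between the HEK293T genotypes are given as a description, with no p-value. The table holds 114349 splice events, of which 9 belong to CRNDE: 3 alternative 3′ splice site events and 6 skipped exon events. A level in each of the 6 libraries and a mean of at least 10 junction reads were found for 8 of the 9, and for 94005 events of the whole table. The ninth, the skipping of an exon at chr16:54876259-54876394, had 1 read in WT 1 and none in the other 5 libraries.

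The HEK293T cells, a human embryonic kidney line, carried SF3B1 K700K (WT, 3 libraries) or SF3B1 K700E at the endogenous locus (MT, 3 libraries). The same study profiled DNA:RNA hybrids in Nalm-6, a human leukemic B cell line, with 2 libraries each for SF3B1 K700K and SF3B1 K700E, both untreated and after RNase H treatment (labelled RNH1). The table lists 6 MT values per event and gives 3 of them a column of their own. These 3 are called MT 1, MT 2 and MT 3 here, although no label ties them to the MT samples. Nothing in the labels says that libraries of a genotype came from separate cultures or clones, so the spread between them may be technical. Splice events of a cell type's genes show only that the genes are transcribed. Of the 15 genes checked as markers of an erythroleukemia line, 13 had no event in the table. The 2 with events, EPOR and VAV1, had means of at most 5.33 and 14.5 junction reads. All 10 B lineage genes had no event with 10 or more reads, whereas 5 of 9 genes listed for HEK293T cells had such events, among them KRT18 and CDH2 with up to 117 and 202 reads. PAX2, a kidney gene of that list, reached 3.17 reads. NEFL, NEFM and INA, neuronal genes also known from this line, had no event. The K700E allele itself cannot be checked in a table of splice events.

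CRNDE, named for its differential expression in colorectal neoplasia, is transcribed on chromosome 16 from the strand opposite to its neighbour IRX5, a homeobox transcription factor gene. Its RNA is spliced in several forms, is abundant in fetal tissue and in many tumours, and has been reported to bind chromatin-modifying complexes. SF3B1 is a subunit of the U2 small nuclear ribonucleoprotein, which recognises the branch point of an intron. Cells with hotspot mutations of SF3B1 are known for the use of cryptic 3′ splice sites, which often lie a short way upstream of the usual AG and follow a short, adenine-rich stretch.

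In GENCODE (GRCh38) the gene spans chr16:54845189-54929189 on the minus strand, with 30 transcripts, and its start lies 1676 bp from that of IRX5. The 3 alternative 3′ splice site events concern 1 exon, here called exon 4, which ends at position 54920298 and begins at 1 of 3 sites. The upstream site at 54920410 gives an exon of 113 nt and is used by 8 of the 30 transcripts. The middle site at 54920338, 72 nt further on, gives 41 nt and is used by 2. The downstream site at 54920327, another 11 nt on, gives 30 nt and is used by 4. All 3 join the same upstream exon, exon 3 (chr16:54923585-54923650, in 16 transcripts), across an intron of 3174 nt to the upstream site and 3257 nt to the downstream site.

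The genomic sequence of exon 4 with the last 50 intron bases before its upstream site is given first (chr16:54920298-54920460, minus strand, GRCh38), because all 3 competing sites lie in it. Capitals mark the AG of each site, after which the exon begins. The 23-base windows of the sites follow, with 20 bases before and 3 bases after each junction.
exon 4 with its upstream intron end: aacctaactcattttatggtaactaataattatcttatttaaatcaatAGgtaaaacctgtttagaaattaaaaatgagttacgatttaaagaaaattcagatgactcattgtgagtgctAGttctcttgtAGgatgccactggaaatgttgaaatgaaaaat
upstream site: tatcttatttaaatcaatAGgta
middle site: tgactcattgtgagtgctAGttc
downstream site: gagtgctagttctcttgtAGgat

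The sites differ in the bases before their AG. Of the 18 bases before the AG, 11 were pyrimidines at the upstream site, 10 at the middle site and 11 at the downstream site, against a median of 13 at the sites of all alternative 3′ splice site events with enough reads. Adenines numbered 7 of 18 at the upstream site, 3 at the middle site and 2 at the downstream site, and 1.52% of the 4947 longer-form sites of the table had more than 7. A match to CTNAC, a loose form of the branch point motif searched on the sense strand only, lay in the 50 bases before the upstream site and in none of the 50 bases before either other site; 24.0% of longer-form and 22.8% of shorter-form sites in the table had one. The nearest earlier AG ended 6 nt before the end of the middle site's AG. For the downstream site it was the middle site itself, 11 nt before, and 25.3% of the 4908 shorter-form sites had an AG within 11 nt. These matches describe the letters of the windows and not where a factor binds.

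The use of the upstream site was lower in all 3 MT libraries. An inclusion level is the fraction of transcripts in the longer form, estimated from junction reads divided by the length of each form. In the event that sets the upstream site against the downstream site, the level of the longer form was 0.836, 0.829 and 0.930 in WT 1 to WT 3. It was 0.219, 0.202 and 0.179 in MT 1 to MT 3. Thus every MT library lay far below every WT library, and the WT mean was 0.865 ± 0.0564 (SD, n = 3) against an MT mean of 0.2 ± 0.0201 (SD, n = 3), a difference of -0.665. Behind these levels stood 132 to 208 junction reads per WT library and 106 to 124 per MT library.

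Against the middle site, the upstream site was used in nearly all WT transcripts, with levels of 1, 0.970 and 1. In MT the levels were 0.819, 0.568 and 0.672. The groups did not overlap, and the MT libraries differed among themselves more than the WT libraries did, with means of 0.990 ± 0.0173 (SD, n = 3) and 0.686 ± 0.126 (SD, n = 3) and a difference of -0.304. In the third event, the middle site against the downstream site, WT libraries had levels of 0.327, 0.327 and 0.612 and MT libraries 0.082, 0.161 and 0.107. Here too the groups did not overlap (0.422 ± 0.165 against 0.117 ± 0.0404, SD, n = 3 each; difference -0.305), but WT 3 stood apart from the other WT libraries and only 20 to 22 reads lay behind each WT level. The sign of this difference turned to positive (0.0626) when only the reads spliced to each site were counted, as described with the junction reads.

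**Figure D1:**
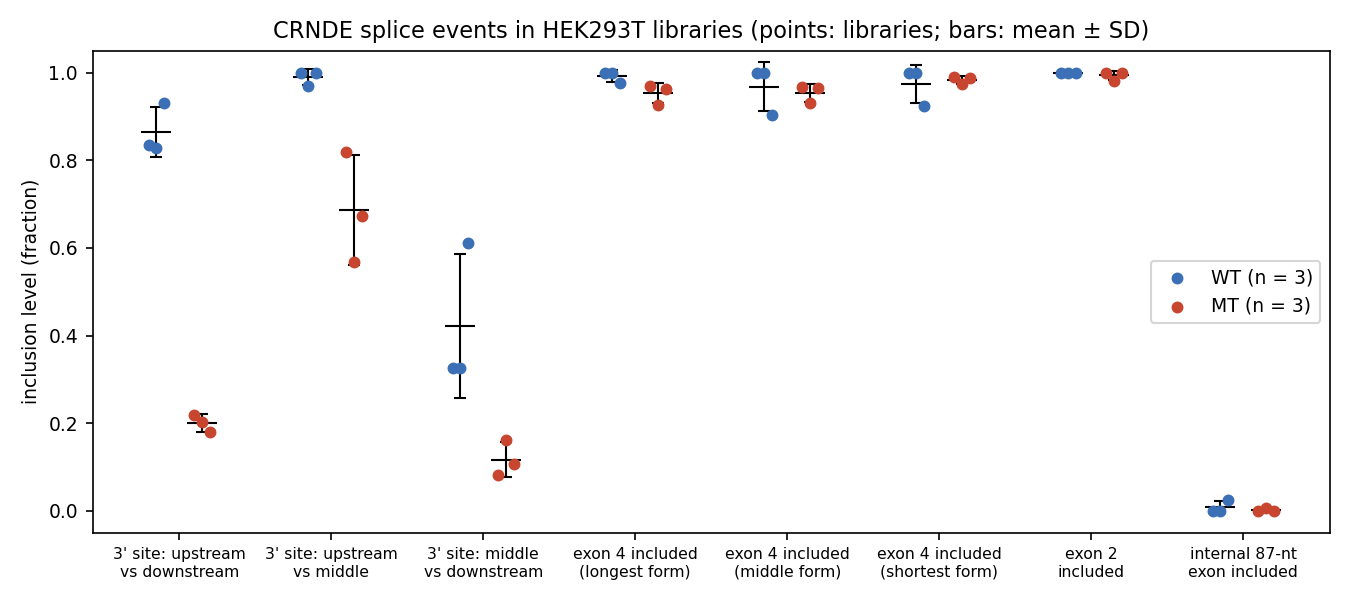
Inclusion level (fraction, vertical axis) of the 8 measured CRNDE events in each WT (blue) and MT (red) HEK293T library, with the mean and SD of each group in black. The 3 events on the left, which concern the 3′ splice sites of exon 4, lie lower in MT at their deposited levels, by 0.665 for the first. The third of them turned to 0.0626 higher when only reads spliced to each site were counted, and the 5 exon skipping events differ by at most 0.039.

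Across the table, 1446 of 94005 events (1.54%) had groups that did not overlap and means more than 0.1 apart, and CRNDE contributed 3 of its 8 events, or 2 where the middle against downstream event is counted from the reads spliced to each site only. By limma on the transformed inclusion levels, with Benjamini-Hochberg adjustment over all events tested and a difference above 0.1, 26 of 83581 events (0.0311%) were called, of which 2 were CRNDE events, both with the upstream site as the longer form. With the logit of the level 3 events were called, 1 of them of CRNDE, and without WT 1, WT 3, MT 1, MT 2 or MT 3 in turn 1 CRNDE event was called. The gene was picked on this contrast, so these counts are printed beside the background and nothing is read from them. Among the 5666 alternative 3′ splice site events, none had a lower difference than the upstream against downstream event of CRNDE. There were 14 lower than its middle against downstream event at the deposited level and 15 lower than its upstream against middle event. These ranks count CRNDE's own events, which share junction reads, and only describe a gene picked on this contrast. In the class of alternative 3′ splice site events, 187 (3.30%) did not overlap and were more than 0.1 apart. Of these, 85 were lower and 102 higher in MT, and 90% of the differences of the other genes lay between -0.093 and 0.0860.

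**Figure D2:**
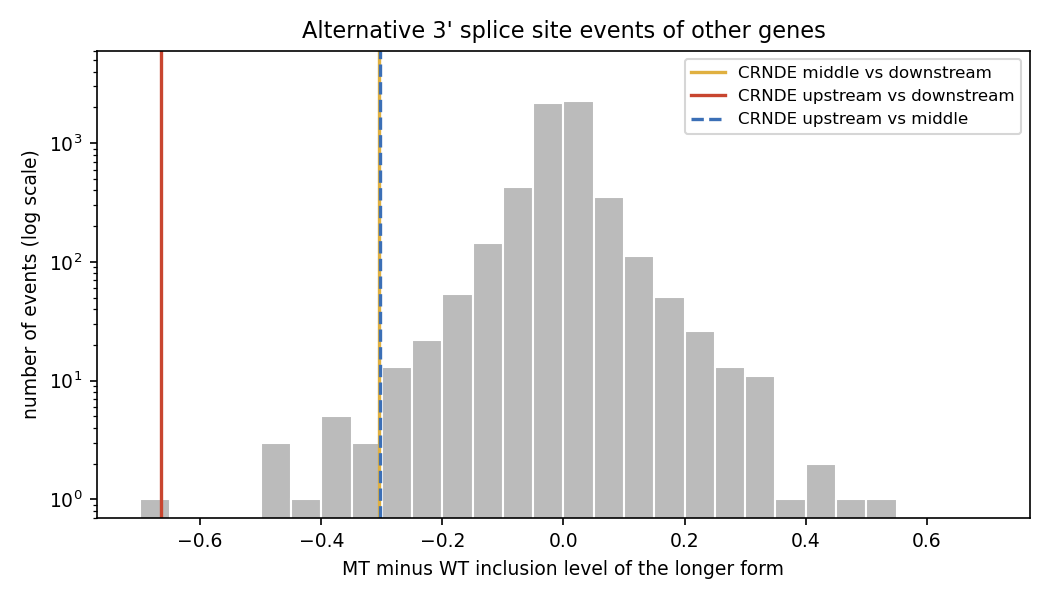
Number of events (vertical axis, log scale) by MT minus WT difference in inclusion level (horizontal axis) for the 5663 alternative 3′ splice site events of other genes, in bins of 0.05. Vertical lines mark the 3 CRNDE events, at -0.665, -0.305 and -0.304, and the last 2 nearly coincide.

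When both events that contain the upstream site were solved together for the share of each site, the downstream site took the place of the upstream one. The upstream site had 83.6%, 80.8% and 93.0% of the use in the WT libraries and 20.9%, 17.5% and 16.5% in the MT libraries. Its inclusion reads are not only reads spliced to that site, as WT 1 had 118 against the middle and 125 against the downstream site. The reads spliced to the upstream site alone were not counted. The downstream site had 16.4%, 16.7% and 7.0% in WT and 74.5%, 69.2% and 75.5% in MT. Neither site's groups overlapped, and the means moved from 85.8% ± 6.38 to 18.3% ± 2.31 for the upstream site and from 13.4% ± 5.51 to 73.1% ± 3.40 for the downstream site (SD, n = 3 each). The middle site was the least used in every library by this solution, with 0%, 2.50% and 0% in WT and 4.62%, 13.3% and 8.03% in MT. Solved from the middle against downstream event instead, the middle site's mean share was 8.33% in WT and 9.59% in MT, and in WT 3 it exceeded that of the downstream site (9.94% against 6.30%), so that its difference was 1.25 instead of 7.82 percentage points, while the upstream and downstream sites differed by -61.1 and 59.9 points.

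**Figure D3:**
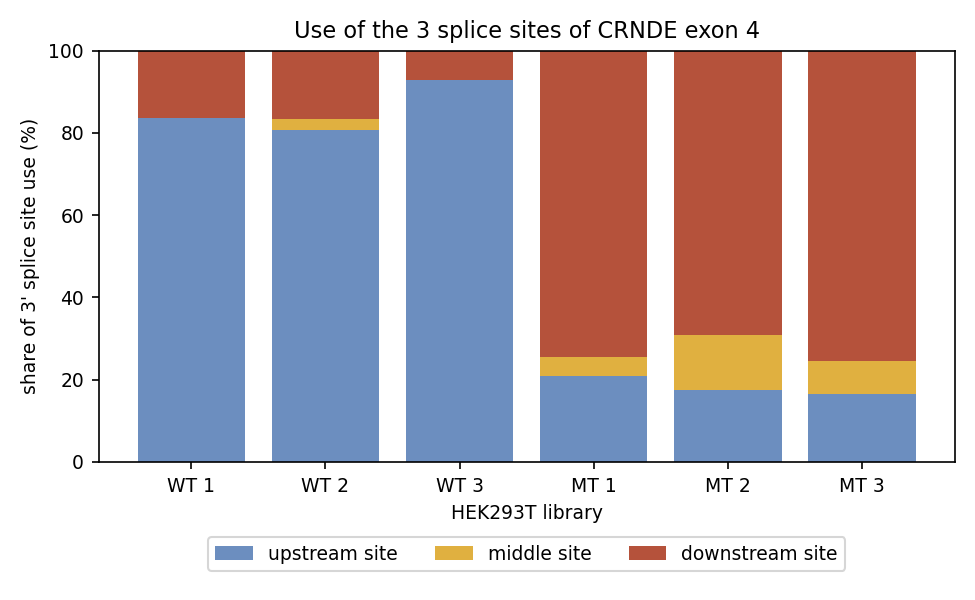
Share of the use of the upstream, middle and downstream 3′ splice sites of CRNDE exon 4 (%, stacked to the full use of the exon) in each HEK293T library, solved from both events that contain the upstream site. The upstream site holds 80.8% to 93.0% in the WT libraries and 16.5% to 20.9% in the MT libraries, and the downstream site holds 69.2% or more in MT.

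The reads of the single junctions bear on the middle site. Reads spliced from exon 3 to the middle site numbered 0, 2 and 0 in WT and 5, 15 and 8 in MT. Reads spliced to the downstream site numbered 13, 13 and 8 in WT and 81, 75 and 75 in MT, higher in every MT library. The middle against downstream event nevertheless counted 7, 7 and 14 inclusion reads in WT and 8, 16 and 10 in MT. In WT the excess over the reads spliced to the middle site was 7, 5 and 14, and in MT it was 3, 1 and 2. In 6 of 6 libraries it equalled the number by which the inclusion reads of the upstream against downstream event exceeded those of the upstream against middle event. Both numbers concern the bases between the middle and downstream sites, so their equality may follow from the counting and is no separate evidence. The 11 bases between the middle and downstream sites (ttctcttgtAG, chr16:54920328-54920338, with the AG of the downstream site in capitals) are part of the upstream form as well. At the read density of that form, 7.96, 7.69 and 12.6 reads would fall on them in WT and 2.70, 2.36 and 1.96 in MT.

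Among reads spliced to the middle or the downstream site, the middle site therefore had 0 of 13, 2 of 15 and 0 of 8 in WT and 5 of 86, 15 of 90 and 8 of 83 in MT. The mean share was 4.44% ± 7.70 in WT and 10.7% ± 5.50 in MT (SD, n = 3 each), the groups overlapped, and the difference of 6.26 percentage points ran opposite to that of the deposited level. Summed over libraries, 2 of 36 reads in WT (5.56%, 95% Clopper-Pearson interval 0.680% to 18.7%) and 28 of 259 in MT (10.8%, 7.30% to 15.2%) went to the middle site. Taking 3 counts of the total as the limit that a count of 0 allows, 0 of 13 reads permits a share of up to 23.1% and 0 of 8 up to 37.5%, and intervals and limits cover counting error only. A difference in the balance of the middle and downstream sites was not detectable at this depth.

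**Figure D4:**
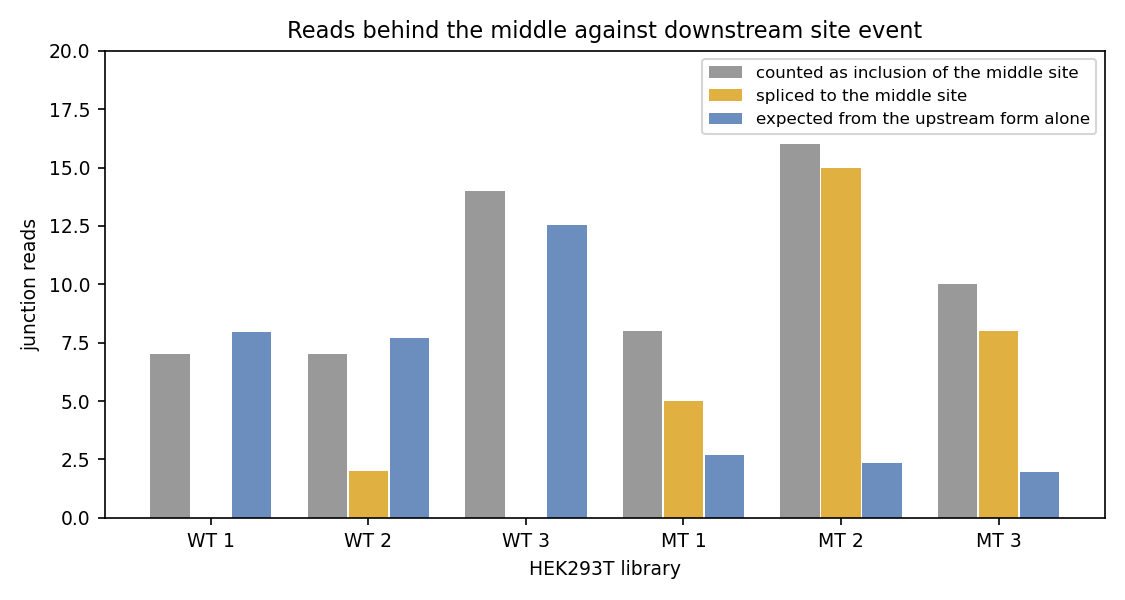
Junction reads (vertical axis) per HEK293T library in the middle against downstream event: inclusion reads as counted in the table (grey), reads spliced to the middle site (yellow) and reads that the density of the upstream form would place on the 11 bases between both sites (blue). In WT the grey bars are 7, 7 and 14, the yellow bars 0, 2 and 0 and the blue bars 7.69 to 12.6. In MT the grey bars are 8, 16 and 10, the yellow bars 5, 15 and 8 and the blue bars 1.96 to 2.70. The source of the grey reads was not tested.

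The exon skipping events of CRNDE that could be measured differed little between WT and MT. Exon 4 was included in nearly all transcripts, with levels from 0.904 to 1 in WT and 0.927 to 0.989 in MT over the events of its 3 forms. For the 113-nt form the groups did not overlap (1, 1 and 0.976 against 0.970, 0.927 and 0.962), at a difference of -0.039. Reads that joined exon 3 directly to exon 5, which begins at 54919209, numbered 0, 0 and 2 in WT and 1, 2 and 1 in MT. They are the exclusion reads of all 3 forms. The inclusion reads of the 113-nt form numbered 104, 113 and 164 in WT and 65, 51 and 51 in MT. Its level thus also depends on the use of the upstream site and is no separate measure of exon 4 skipping. Exon 2 (chr16:54925101-54925213) was included at 1, 1 and 1 in WT and 1, 0.982 and 1 in MT. An internal exon of 87 nt at chr16:54924601-54924687, present in 1 annotated transcript, was included at 0, 0 and 0.024 in WT and at 0, 0.007 and 0 in MT.

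Reads that joined exon 2 to exon 3, upstream of the alternative sites, numbered 85, 98 and 104 in WT and 137, 148 and 138 in MT, higher in every MT library. After division by a depth factor of each library (0.918 to 1.17, the median ratio over 49131 events), the means were 88.0 ± 14.2 in WT and 137 ± 10.5 in MT (SD, n = 3 each), a ratio of 1.56. These reads come from CRNDE RNA spliced at that junction, and they do not separate the amount of RNA from the use of the junction.

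The events of other genes with levels nearest to those of the upstream against downstream event were taken from 93997 candidates, with 1 event per gene. The measure was the root mean square difference over the 6 levels. The nearest was an alternative 3′ splice site of ERGIC3, a protein of transport between the endoplasmic reticulum and the Golgi (0.0984), whose WT levels were 0.685, 0.766 and 0.867 and whose MT levels were 0.086, 0.104 and 0.172. Then came retained introns of RPRD1A, a regulator of RNA polymerase II (0.118), RPS15, a ribosomal protein (0.135), and RAD51D, a homologous recombination factor (0.153). The next was a skipped exon of FIRRE, a long noncoding RNA (0.161), whose mean level was 0.675 ± 0.179 in WT and 0.225 ± 0.0975 in MT (SD, n = 3 each). A skipped exon of ZNF708, a zinc finger protein (0.176), an alternative 5′ splice site of ABCD4, a transporter (0.185), and an alternative 3′ splice site of ABCC5, an efflux transporter (0.189), completed the 8. Mean junction reads lay just above the minimum of 10 for RAD51D (10.4), FIRRE (11.2), ABCD4 (11.8) and ZNF708 (12.25). They were 22.25 for ABCC5, 34.1 for RPS15, 41.4 for ERGIC3 and 111 for RPRD1A. All 8 events were lower in MT, which follows from the way they were chosen.

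Of the IRX genes next to CRNDE, IRX5 had no event in the table, IRX6 had none with enough reads and IRX3 had 1, at 0.977 ± 0.0398 in WT and 1 ± 0 in MT (SD, n = 3 each). The 11 genes of chromatin complexes reported to bind CRNDE, among them the Polycomb subunits EZH2, SUZ12 and EED and the CoREST subunits RCOR1 and KDM1A, had 134 events with enough reads. Of these 1 did not overlap and was more than 0.1 higher in MT and none was lower (0.746%, against 1.54% of all events). It was a pair of mutually exclusive exons of JARID2, a Polycomb cofactor, at 0.453 ± 0.0770 in WT and 0.572 ± 0.0469 in MT (SD, n = 3 each). Limma called 0 of the 120 events it tested, of which 2 (1.67%) had an unadjusted p under 0.05, against 3739 of all 83581 (4.47%). The median difference over the list was 0, as over all events.

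Of 45 other long noncoding RNA genes, 31 were in the table and 27 had 364 events with enough reads. Non-overlapping groups with means more than 0.1 apart were found for 10 of these events (2.75%, against 1.54% of all events), 4 higher and 6 lower in MT, where over all events 628 were higher and 818 lower. Limma called 0 of 338, of which 30 (8.88%) had an unadjusted p under 0.05, against 3739 of all 83581 (4.47%). A skipped exon of HOTAIR, transcribed from the HOXC cluster, had 0.475 ± 0.237 in WT and 0.756 ± 0.0768 in MT, and its groups overlapped. An alternative 3′ splice site of SNHG1, a snoRNA host gene, had 0.397 ± 0.105 in WT and 0.186 ± 0.00777 in MT. A skipped exon of FTX, a gene of the X inactivation centre, had 0.363 ± 0.139 in WT and 0.144 ± 0.0167 in MT (SD, n = 3 each). In neither SNHG1 nor FTX did the groups overlap. They did overlap for a skipped exon of GAS5 (0.737 ± 0.265 in WT, 0.928 ± 0.0303 in MT) and for mutually exclusive exons of DLEU1 (0.653 ± 0.203 in WT, 0.471 ± 0.155 in MT; SD, n = 3 each). Mean junction reads were 15.75 for FTX, 16.8 for DLEU1, 20.75 for HOTAIR, 24.1 for GAS5 and 48.4 for SNHG1.

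DRIP-seq, in which the S9.6 antibody recovers DNA:RNA hybrids, was not used in choosing the gene and was measured in another cell line, Nalm-6. The CRNDE locus, the annotated gene with 3000 bp on each side, was examined in the peak lists. Peaks of untreated libraries were kept as bona fide unless any base lay under a peak of the matching RNH1 library (same genotype, same replicate). The study's own bona fide peaks were called over its RNaseH1-treated samples, so the bases given here are not the study's measure. Bona fide peaks covered 1894 and 787 bases in the WT libraries and 1093 and 2194 bases in the MT libraries. The groups overlapped (means 1340.5 ± 783 and 1643.5 ± 779, SD, n = 2 each), with a difference of 303 bases and a two-sided exact permutation p of 0.667, where 0.333 is the smallest p that 2 against 2 libraries can give. The difference turned to -250.5 bases without WT 2, to -247.5 without MT 2 and to -178.5 with peaks of a fold enrichment of at least 4 only. RefSeq gives a shorter gene, chr16:54918863-54928886, and most of the bona fide bases of each library lay outside it. Inside it, bona fide peaks of 432 and 393 bases lay in WT 1, of 407 in MT 1 and of 280 in MT 2. WT 2 had none there. The difference over this shorter gene was not tested. Over all chromosomes 123720 and 131096 peaks were listed for the untreated WT libraries, against 254170 and 296533 for those of MT, and the part of these numbers in the locus values was not tested.

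No library had a peak within 3000 bp of the annotated start of CRNDE. The peaks formed 14 separate regions, of which 1, at chr16:54902147-54903130, held a peak in all 8 libraries, the RNH1 libraries included, with fold enrichments of 4.51 to 10.1. A region at chr16:54868584-54868908 had peaks only in both untreated WT libraries (7.77 and 7.76). Peaks at chr16:54857164-54857528 were found in both untreated MT libraries, in both MT RNH1 libraries and in WT 2 RNH1, so that none was bona fide. One at chr16:54891414-54891734 had peaks only in both untreated MT libraries (3.77 and 4.75). A single library held the peak in 7 of the 14 regions. The region closest to exon 4 among those shared by libraries, chr16:54919163-54919594, covers the start of exon 5 and the end of the intron before it and lies 704 bp downstream of exon 4. It held bona fide peaks in WT 1 (5.58), MT 1 (4.87) and MT 2 (2.99), so that both genotypes had one there.

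**Figure D5:**
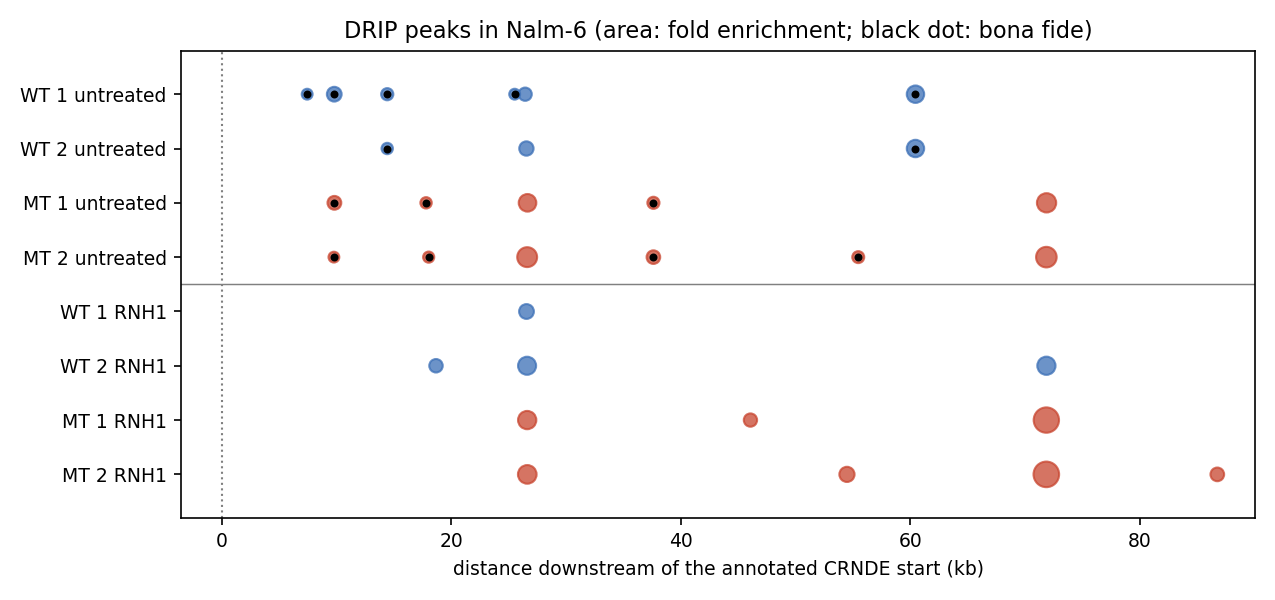
DRIP peaks in the CRNDE locus in each of the 8 Nalm-6 libraries (rows), by distance downstream of the annotated start (kb). The area of a point is proportional to the fold enrichment, black dots mark bona fide peaks, and the dotted line at 0, the annotated start, has no peak near it.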

How the data were processed

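The splicing table holds, as the authors deposited it, the inclusion level of each event as a fraction, with lists of junction read counts and form lengths. Per the labels and methods, total RNA was sequenced as paired-end reads, and the submitters' processing notes name STAR, StringTie and BWA and GRCh38, without versions. The junction counts were compared by the study with the statistical model of rMATS. Its p-values and adjusted p-values were not used. The DRIP peak lists were called by the authors with MACS2 for each library by itself, on reads mapped to GRCh38, and give each peak a fold enrichment (ratio) and a −log10 q-value.

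CRNDE levels equalled the listed reads per form length to within 0.0006. The 3 MT columns equalled entries 1, 2 and 6 of the 6 listed MT values in all 114349 events. Entries 3 to 5 were not used for levels or for the reads of single libraries. They do enter the mean junction reads of an event, which average the WT mean and the MT mean over all 6 listed values. These means set the read minimum and the variance trend, and are the mean reads printed for other genes. A test on counts had been planned where counts of each library could be read, but MT counts are not matched to samples, so limma 3.58.1 (R 4.3.3) was run on levels after an arcsine square-root transformation, with the variance trend on log mean reads. It was also run on simulated data, whose spread between libraries was a fixed setting, so its error rate on these libraries was not tested. Site shares came from the odds of the paired levels. Intervals came from scipy 1.17.1. Sites were annotated with GENCODE 44, and sequences were read from GRCh38. The nearest events were the 8 of other genes with the smallest root mean square difference from the CRNDE event that differed most; from each list at most 5 events were named by largest difference. The members, lists and rules were chosen with earlier results of these data known. Depth-scaled reads are printed only for the exon 2 to exon 3 junction; other reads are as listed. Alternatives were the read minimum, the difference, the transformation, the solution of the shares, leaving out each library and, for DRIP, the window, the subtraction and the fold enrichment.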

Additional observations from a re-analysis of the deposited data

How the results depend on the processing

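The upstream against downstream difference ranged from -0.683 to -0.6325 when each library was left out, the upstream against middle difference from -0.37 to -0.2445 and the middle against downstream difference from -0.353 to -0.210. Counted from reads spliced to each site alone, a choice made after seeing the data, the last turned to 0.0626. The deposited inclusion reads exceeded those spliced to the middle site in every library, and the source of this excess was not tested. The downstream site's share difference ranged from 56.5 to 61.6 points and the upstream site's from -70.0 to -63.9, or -61.1 solved from the other pair; the middle site's ranged from 5.49 to 9.84, or 1.25 from the other pair. The number of CRNDE events with groups apart was 3 with other minimums of reads, a difference above 0.2 and each library left out, and 2 with the middle against downstream event from spliced reads only. The share of all events ranged from 0.455% to 3.83%. Limma called 2 CRNDE events, 1 with the logit, and 1 to 2 without each library. It was 1 without WT 1, WT 3, MT 1, MT 2 or MT 3. Over all events limma called 26, against 3 with the logit, 22 without a read minimum, 17 at 50 reads and 3 to 13 without each library. The 5 skipped exon differences ranged from -0.0475 to 0.0213.

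No paired analysis was possible because the MT columns of the splicing table carry no replicate number that matches the labels, so the planned block in limma was not run. For DRIP the replicate block gave the same mean difference of 303 bases, from -801 and 1407 within the replicate numbers, with an exact permutation p of 1 where 0.5 is the smallest possible; 2 pairs are too few to check whether the numbers pair the libraries. The DRIP difference was 626 bases without the subtraction and -178.5 bases at a fold enrichment of at least 4. It was -250.5 to 856.5 when each library was left out, with -250.5 without WT 2 and -247.5 without MT 2. Depth limits the WT shares of the middle and downstream sites, which rest on 8 to 15 spliced reads per library.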
